A study of Mus musculus with 12 samples.

Results

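Dermis taken 7 days into a wounding experiment was compared between mice lacking Cthrc1 (Cthrc1-/-) and wild-type (WT) mice, with 3 RNA sequencing (RNA-seq) samples per genotype. All were C57BL/6 mice aged 6 weeks, and the experiment used paired wounds of equal size. The labels call the samples biological replicates without naming the animals, and they do not describe how the Cthrc1 allele was made, nor whether the WT mice were littermates. If samples shared an animal, p-values measure the spread between these samples only. The genes described are those with a mean of at least 1 FPKM (fragments per kilobase of transcript, scaled to the library's total) over the 6 samples of day 7, which were 14473 of the 55401 genes in the table. A further 6 samples of day 0, 3 per genotype, entered the same statistical fit and served as a second measure of the genotype difference. Total counts ranged from 61645021 to 70867226 on day 7.

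Cthrc1 encodes a secreted glycoprotein with a short collagen-like repeat. It is known as a product of activated fibroblasts and smooth muscle cells at sites of injury and matrix remodelling, and has been linked to collagen deposition and to the planar cell polarity branch of Wnt signalling. A skin wound normally passes from an inflammatory stage led by neutrophils and then macrophages, through granulation tissue in which fibroblasts deposit collagen and vessels grow in, to re-covering by keratinocytes and remodelling. The gene groups below follow that order.

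A gene was called where edgeR's quasi-likelihood test, adjusted by the Benjamini-Hochberg method over the 14473 genes, gave an adjusted p under 0.05. By this rule 3 genes were called, which is 0.0207% of those tested: Cthrc1, which was lower in Cthrc1-/-, and Gm20305 and Gm47305, which were higher. At an unadjusted p under 0.05 there were 800 genes, or 5.53%, of which 337 (2.33%) were higher and 463 (3.2%) lower in Cthrc1-/-. Scaling to total counts, in place of the trimmed mean of M values (TMM), turned that split to 454 higher and 353 lower, and moved the median log2 change of all genes from -0.01 to 0.07. Of the differences described below, only those said to be called passed the adjusted threshold. Changes are in log2, Cthrc1-/- minus WT, ± the standard error (SE), with 3 samples per genotype.

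Both called genes other than Cthrc1 share sequence with another gene, and Gm20305 is shown beside the gene it copies because they differ at a single base. Gm20305 is a processed pseudogene at chr1:180854282-180854458 (GRCm38, minus strand), lying inside Sde2 on the opposite strand. Its 177 bases match the whole coding sequence of Polr2k, a gene of chromosome 15 that encodes a small zinc-binding subunit shared by the nuclear RNA polymerases, except at 1 base (capital letter). Counted from the first base of the coding sequence, that difference is T49G, with the Polr2k base first. The 2 sequences, from the GENCODE M21 transcripts, read 5′ to 3′ as follows.
Polr2k coding sequence: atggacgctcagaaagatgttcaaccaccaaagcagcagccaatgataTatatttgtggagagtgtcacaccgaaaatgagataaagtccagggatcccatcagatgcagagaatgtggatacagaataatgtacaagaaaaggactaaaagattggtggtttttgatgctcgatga
Gm20305: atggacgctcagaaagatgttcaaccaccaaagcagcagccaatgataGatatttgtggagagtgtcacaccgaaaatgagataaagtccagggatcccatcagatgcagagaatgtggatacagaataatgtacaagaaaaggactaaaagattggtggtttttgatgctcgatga
Gm14567, a processed pseudogene at chrX:38969817-38969990 (plus strand), is identical to the first 174 bases of the Polr2k sequence. Gm47305, annotated as a miRNA gene on chromosome 12, lies wholly inside Rn7s2, a gene for the 7SL RNA of the signal recognition particle, on the same strand, and its bases also occur in Rn7s1.

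Cthrc1 was measured first, as the targeted gene. It stood at 106, 95.5 and 74.0 FPKM in WT replicates 1, 2 and 3, and at 0.0883, 0 and 0.0340 FPKM in Cthrc1-/- replicates 1, 2 and 3. The counts behind these values were 11678, 11608 and 8276 in WT and 12, 0 and 4 in Cthrc1-/-. Every library labelled Cthrc1-/- was therefore near 0, and every WT library was far above it. The log2 change was -11.07 ± 1.12, with an edgeR adjusted p of 0.0107. With only the 6 day 7 samples in the fit, the adjusted p was 0.0520, and without Cthrc1-/- replicate 1 or replicate 3 it was 0.05003 and 0.101.

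WT replicate 1 stood apart from the other 5 samples. Its expression profile correlated at between 0.878 and 0.901 with theirs, while they correlated at between 0.941 and 0.968 with each other (Pearson's r across genes on log2 counts scaled per library (CPM), which are not independent). It lay at 85.3 on the first principal component, which held 50.8% of the variance, and the others lay between -28.9 and -5.76. It was the highest of the 6 samples for 4229 genes (29.2%) and the lowest for 4160 (28.7%). Among the genes in which it was farthest above the others were Cxcl3, Cxcl5, Retnlg, Saa3 and G0s2. Saa3, an acute phase protein, was at 873, 14.4 and 4.73 FPKM in WT and 19.04, 7.15 and 2.29 in Cthrc1-/-. Retnlg, made by neutrophils, was at 236, 1.63 and 0.472 FPKM in WT and 3.59, 2.93 and 0.711 in Cthrc1-/-. Farthest below the others were Krt10, Krt1, Clca3a2, Zfp445, Zfp422 and Rdh16f1. Krt10, a keratin of differentiated epidermis, was at 86.7, 976 and 2417 FPKM in WT and 1454, 1392 and 795 in Cthrc1-/-. WT replicate 1 thus held the high end of an inflammatory gene set and the low end of an epidermal one, and values without it are given beside the gene groups.

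The dissected tissue held more than dermal fibroblasts. The label dermis was checked against defining markers, 3 to 6 for each cell type, and none of the types named here had a marker with a mean under 1 FPKM. Over the 6 samples the fibroblast markers Pdgfra, Col1a1, Col1a2, Dcn, Lum and Dpt summed to between 1770 and 3597 FPKM, and the keratinocyte markers Krt5, Krt14, Krt1, Krt10 and Trp63 to between 2238 and 9225. Hair follicle markers summed to between 408 and 4530 FPKM, skeletal muscle markers to between 51.5 and 656, and neutrophil markers to between 39.1 and 5045. In such bulk samples, fewer cells of a type and less RNA per cell cannot be told apart.

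Of the called genes, Gm20305 was at 0.985, 0.905 and 0.990 FPKM in WT replicates 1 to 3 and at 13.4, 10.47 and 14.1 in Cthrc1-/- replicates 1 to 3. Each Cthrc1-/- sample was above 10 FPKM and each WT sample below 1. The log2 change was 3.54 ± 0.33, or 11.6-fold (edgeR adjusted p 0.00936). The difference was present on day 0 at almost the same size, with 1.60, 0.768 and 0.819 FPKM in WT and 13.2, 12.8 and 13.7 in Cthrc1-/- (log2 change 3.49, edgeR adjusted p 0.00300). Polr2k itself differed in the opposite direction: 24.3, 22.3 and 31.3 FPKM in WT against 5.15, 9.22 and 9.45 in Cthrc1-/-, a log2 change of -1.78 ± 0.24 that missed the threshold (edgeR adjusted p 0.0648) on day 7 and passed it on day 0 (log2 change -1.82, adjusted p 0.00949). Gm14567, which carries the same coding bases, stood at 2.71, 3.27 and 3.39 FPKM in WT and 16.1, 6.17 and 9.04 in Cthrc1-/-. In each Cthrc1-/- sample both pseudogenes were above every WT sample, and Polr2k was below every WT sample.

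Because reads from such copies can be assigned to any of them, the counts were also summed over Polr2k, Gm20305, Gm14567 and Gm47146. The sums were 18.8, 15.6 and 20.6 CPM in WT replicates 1 to 3 and 8.64, 9.04 and 10.1 CPM in Cthrc1-/- replicates 1 to 3, a ratio of 0.506 with no overlap between the groups (exact two-sided permutation p = 0.1, the smallest that 3 against 3 samples can give). Of these sums Polr2k took 95.8, 94.3 and 95.7% in WT and 38.2, 66.2 and 58.9% in Cthrc1-/-. Both the total and the split between the copies differed, then, and how far the counting divided reads between them was not tested.

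Rpl30, a protein of the large ribosomal subunit whose gene lies near Polr2k, gave another such pair. Rpl30 was at 115, 135 and 163 FPKM in WT and 47.5, 53.6 and 61.0 in Cthrc1-/- (log2 change -1.41 ± 0.23, edgeR adjusted p 0.171). Its processed pseudogene Gm12191, 98.8% identical over 172 bases, was at 321, 248.8 and 220.2 FPKM in WT and 849, 973 and 1335 in Cthrc1-/- (log2 change 1.903 ± 0.31, edgeR adjusted p 0.171). Summed over Rpl30 and 8 genes that share its sequence, the counts came to 579, 548 and 596 CPM in WT and 527, 535 and 674 in Cthrc1-/-, and the groups overlapped (ratio 1.01, exact two-sided permutation p = 1). Rpl30 supplied 70.9, 78.0 and 83.2% of that sum in WT and 27.9, 31.4 and 27.7% in Cthrc1-/-. For this family only the division among the copies separated the genotypes.

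**Figure D1:**
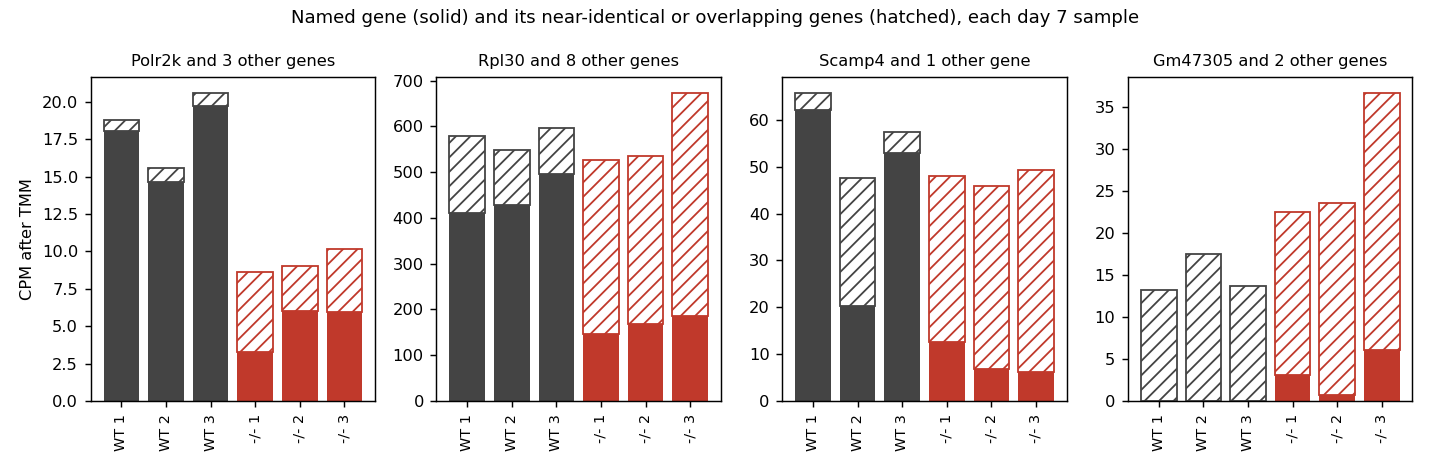
Bars give CPM after TMM scaling in each day 7 sample (WT 1 to 3 grey, Cthrc1-/- 1 to 3 red), with the solid part for the named gene and the hatched part for the genes that share its sequence or overlap it. The Polr2k total runs from 15.6 to 20.6 CPM in WT and from 8.64 to 10.1 in Cthrc1-/-, while the Rpl30 totals overlap.

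Gm47305 was at 0.165, 0.151 and 0.168 FPKM in WT, which was 1 count in each library, and at 42.4, 10.3 and 85.7 FPKM in Cthrc1-/-, from 235, 56 and 415 counts. The ratio of the summed counts was 215, with a 95% counting interval (exact, counting error only) of 73.1 to 1043, and the edgeR adjusted p was 0.0120. On day 0 it stood at 0.191, 0.119 and 0.212 FPKM in WT and 0.139, 0.176 and 0.180 in Cthrc1-/-, so both genotypes were near 0. Its host Rn7s2 was at 15.4, 27.4 and 20.9 FPKM in WT and 29.1, 36.4 and 46.1 in Cthrc1-/-. Summed over Gm47305, Rn7s1 and Rn7s2, the counts were 13.2, 17.5 and 13.7 CPM in WT and 22.6, 23.6 and 36.7 in Cthrc1-/-, without overlap (ratio 1.87, exact two-sided permutation p = 0.1). Gm47305 supplied 13.6, 3.18 and 16.5% of that sum in Cthrc1-/-. The libraries were selected for poly(A) RNA, which 7SL RNA lacks. Without WT replicate 1, 2 or 3, or without Cthrc1-/- replicate 1, the edgeR adjusted p of Gm47305 was 0.166, 0.0925, 0.0941 and 0.05003, so the call needed each of those libraries. It was 0.368 with only the 6 day 7 samples in the fit, 0.0612 with voom and sample quality weights, and 0.866 with the counts divided by 4, a setting tried because the deposited counts favour multiples of 4.

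The region around Cthrc1 was examined because Polr2k and Rpl30 both lie there. Within 10 Mb on either side of the gene on chromosome 15, 52 other genes were tested. Of the 52, 11 had an unadjusted p under 0.05 on day 7, which is 21.2% against 5.53% of all genes, with 3 higher and 8 lower in Cthrc1-/-. Without WT replicate 1 there were 10. Leaving out Polr2k and Rpl30, which prompted the count, 9 of 50 had such a p on day 7 (18%) and 6 of 50 were called on day 0 (12%). On day 0, in other samples, 8 of the 52 were called (15.4% against 5.4% of all genes), 1 higher and 7 lower, against 3.31% and 2.09% of all genes, and 6 genes were in both sets, each in the same direction on both days. In all these counts Cthrc1 itself was left out. These 6 were Gm49284, Snhg18, Rpl30, Vps13b, Polr2k and Emc2. Snhg18, a long noncoding RNA that hosts a small nucleolar RNA, was at 24.98, 22.4 and 18.0 FPKM in WT and 10.1, 10.1 and 12.03 in Cthrc1-/- (log2 change -1.11 ± 0.30). Emc2, a subunit of a complex that inserts proteins into the endoplasmic reticulum membrane, was at 8.38, 10.7 and 10.4 FPKM in WT and 15.1, 13.8 and 12.8 in Cthrc1-/- (log2 change 0.43 ± 0.11). In both genes the genotypes did not overlap. Slc25a32, which starts 0.0358 Mb from Cthrc1, had a log2 change of -0.28 ± 0.14 on day 7 (edgeR unadjusted p 0.0747). It was lower in Cthrc1-/- without overlap after TMM scaling. On day 0 it was among the genes called lower (log2 change -0.64, edgeR adjusted p 0.0386).

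**Figure D2:**
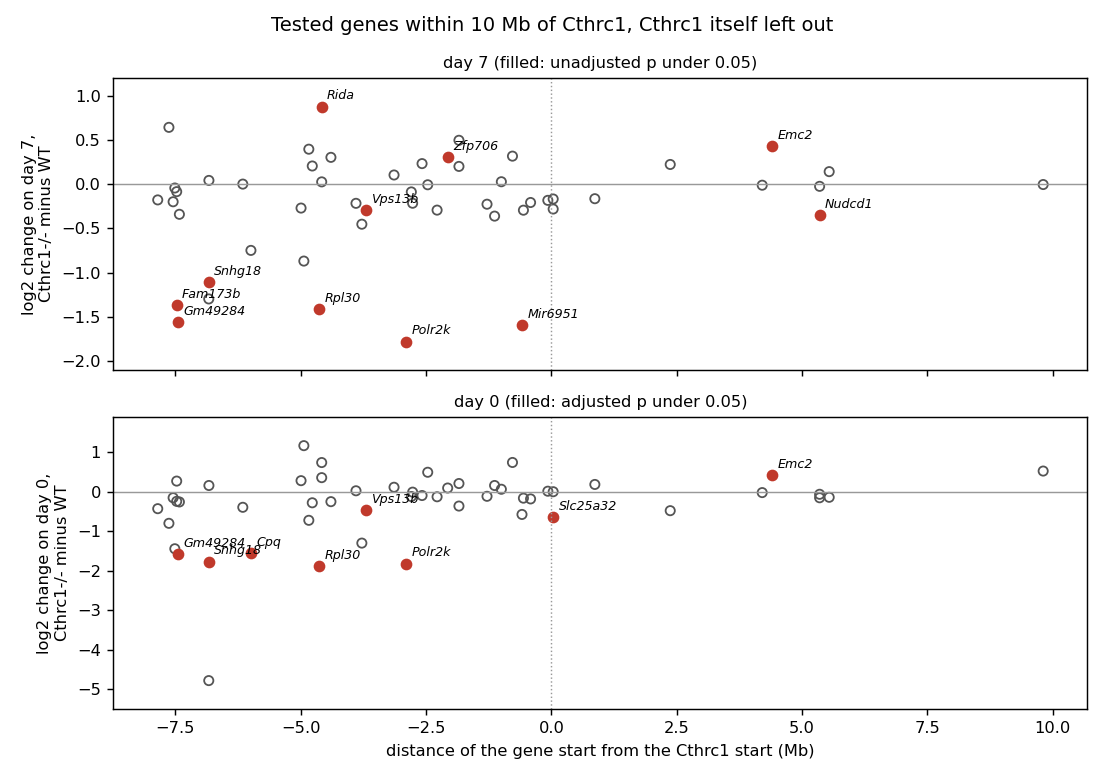
Each point is a tested gene within 10 Mb of Cthrc1, placed by the distance of its start from that of Cthrc1 in Mb (horizontal) and its log2 change, Cthrc1-/- minus WT (vertical), on day 7 above and on day 0 below; filled points had an unadjusted p under 0.05 on day 7 or an adjusted p under 0.05 on day 0. Of the 11 filled points of day 7, 8 lie below 0, with Polr2k at -1.78.

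Beyond the called genes, the 8 higher and 8 lower genes with the smallest p were taken, leaving out placeholder names. After Cthrc1 and Polr2k, the smallest p belonged to Serpina1b, which encodes a form of alpha-1-antitrypsin, an inhibitor of neutrophil elastase made mainly in liver. It was at 0.106, 0.174 and 0.0485 FPKM in WT and 2.81, 5.11 and 1.55 in Cthrc1-/- (log2 change 4.71 ± 0.64, edgeR adjusted p 0.0671). Each Cthrc1-/- sample was at least 1.55 FPKM and each WT sample at most 0.174. Its day 0 levels were 4.28, 1.29 and 2.31 FPKM in WT and 2.37, 2.57 and 2.44 in Cthrc1-/-, so that the 3 WT samples of day 7 were the low ones among the 12. Serpina1a shares 293 bases at 99.0% identity with it and stood at 0.0292, 0 and 0 FPKM in WT and 0.860, 1.27 and 0.185 in Cthrc1-/-. Serpina1c was at 0, 0 and 0 FPKM in WT and 0.301, 0.856 and 0 in Cthrc1-/-. Serpina1d was at 0.148, 0.165 and 0.114 FPKM in WT and 0.221, 0.255 and 0.203 in Cthrc1-/-. Serpina1e went the other way, at 0.779, 1.21 and 0.999 FPKM in WT and 0, 0.0718 and 0.823 in Cthrc1-/-. How far the counting divided reads among these genes was not tested.

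Pgam5, a phosphatase of the mitochondrial membrane, was at 5.41, 7.08 and 5.50 FPKM in WT and 13.1, 13.2 and 15.1 in Cthrc1-/- (log2 change 1.13 ± 0.19, edgeR adjusted p 0.171). Cmc1, an assembly factor of cytochrome c oxidase, was at 4.06, 4.79 and 5.7004 FPKM in WT and 11.4, 11.2 and 12.8 in Cthrc1-/- (log2 change 1.22 ± 0.20, edgeR adjusted p 0.171). Clec14a, a lectin-like protein of endothelial cells, was at 4.41, 4.14 and 2.72 FPKM in WT and 10.9, 12.6 and 8.95 in Cthrc1-/- (log2 change 1.44 ± 0.28, edgeR adjusted p 0.407). In all 3 genes each Cthrc1-/- sample was above each WT sample, and on day 0 their log2 changes were 0.08, 0.28 and 0.08. Pgam5 and Clec14a, with Apbb2 and Eif3s6-ps2, were called in 3 of the 19 fits made, by DESeq2, by limma on log2(FPKM + 1) and by voom with sample quality weights. DESeq2 called 58 genes (0.401%), 27 higher and 31 lower, and voom with sample quality weights called 11 (0.076%), 7 higher and 4 lower.

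Apbb2, an adaptor protein that binds the amyloid precursor protein, was at 0.845, 0.687 and 0.591 FPKM in WT and 2.43, 3.00 and 2.57 in Cthrc1-/- on day 7 (log2 change 1.81 ± 0.30, edgeR adjusted p 0.171). On day 0 the order was the other way round, with 2.43, 2.47 and 2.48 FPKM in WT and 0.420, 0.557 and 0.250 in Cthrc1-/- (log2 change -2.67, edgeR adjusted p 0.00911). The Cthrc1-/- samples of day 7 thus lay at the level of the WT samples of day 0. The interaction of genotype and day was 4.48 on the log2 scale (edgeR adjusted p 0.0145). At an unadjusted p under 0.05 in edgeR's test, 2180 genes (15.1%) had such an interaction. They included 9 of 9 inner root sheath genes and 33 of 40 proliferation genes. At the adjusted threshold only 1 other gene passed, making 2 of 14473 (0.0138%). This was Pds5a, a cohesin regulator on the same chromosome, 5, which differed on day 0 only (interaction -1.46, edgeR adjusted p 0.0448) and stood at 1.70, 1.97 and 2.51 FPKM in WT and 2.12, 1.84 and 1.81 in Cthrc1-/- on day 7.

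The remaining genes higher in Cthrc1-/- by this rule were Dact2, Rnase2b and Defb6. Defb6, an epithelial beta-defensin, was at 138, 287 and 335 FPKM in WT and 755, 1053 and 647 in Cthrc1-/- (log2 change 1.65 ± 0.37, edgeR adjusted p 0.550), and its log2 change on day 0 was 1.46 (adjusted p 0.0477). Rnase2b, an eosinophil-type ribonuclease, was at 5.25, 10.2 and 9.77 FPKM in WT and 61.2, 26.6 and 24.0 in Cthrc1-/-. Dact2, which binds Dishevelled in Wnt signalling, was at 0.406, 0.787 and 0.533 FPKM in WT and 1.44, 1.75 and 1.21 in Cthrc1-/- (edgeR adjusted p 0.520). Each of the 3 separated the genotypes without overlap on day 7.

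The lower genes were Fam173b, Ahdc1, Ipmk, Pcyt1a and Snora33, beside Cthrc1, Polr2k and Rpl30. Pcyt1a, the enzyme that sets the rate of phosphatidylcholine synthesis, was at 8.56, 8.09 and 7.89 FPKM in WT and 1.05, 1.09 and 0.909 in Cthrc1-/- (log2 change -3.08 ± 0.67, edgeR adjusted p 0.550). Within each genotype its day 7 values were tight, yet on day 0 they spread within both, at 7.47, 1.39 and 4.52 FPKM in WT and 0.895, 4.84 and 5.13 in Cthrc1-/-. Fitted on the 6 day 7 samples alone, where the day 0 spread does not enter, Pcyt1a and Snora33 were the only genes called. Snora33, a small nucleolar RNA gene inside Rps12, was at 8.00, 10.2 and 11.997 FPKM in WT and 0.189, 0.143 and 0.158 in Cthrc1-/-, and Rps12 at 167, 188 and 225 FPKM in WT and 239, 259 and 338 in Cthrc1-/-. Snora33 held at most 0.346% of the summed counts of the pair. Ipmk, an inositol phosphate kinase, was at 5.48, 5.00 and 5.69 FPKM in WT and 2.99, 1.68 and 1.11 in Cthrc1-/- and was lower on day 0 as well (log2 change -2.28, adjusted p 0.0148).

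**Figure D3:**
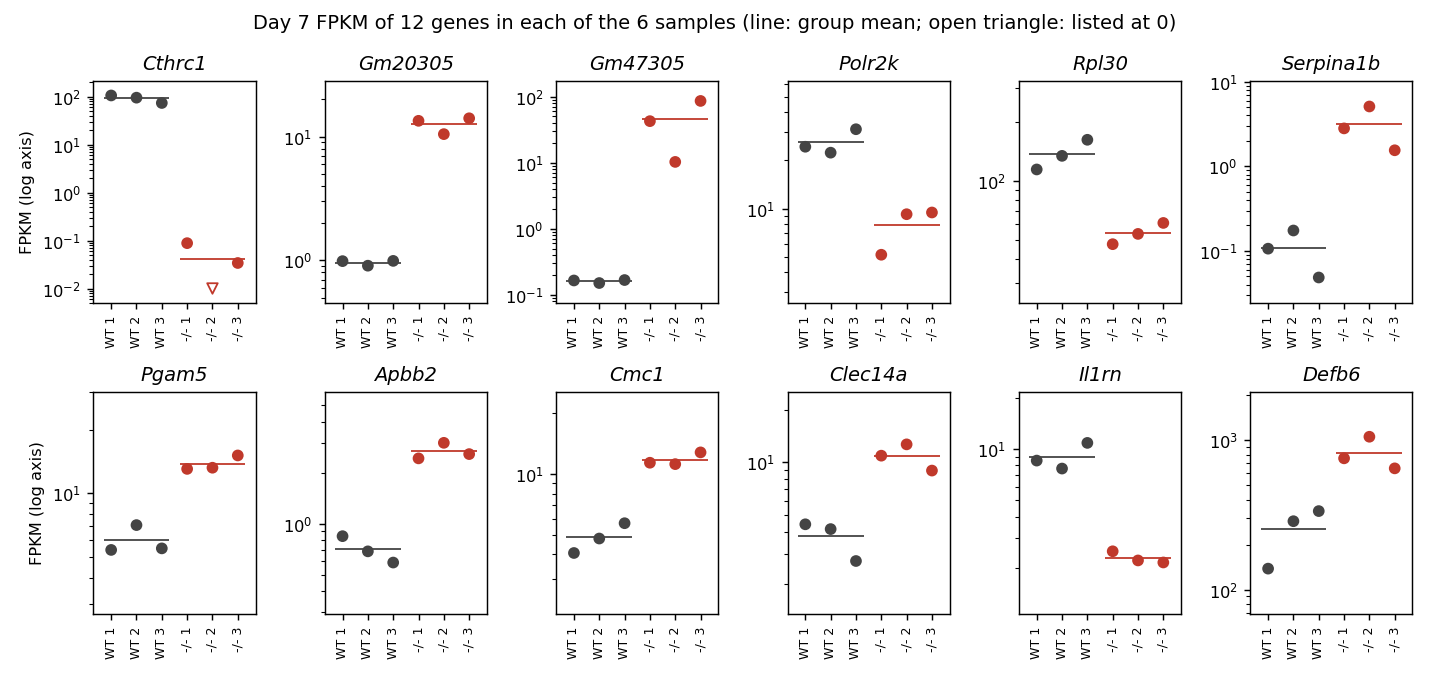
Points give the FPKM (log axis) of 12 genes in WT samples 1 to 3 (grey) and Cthrc1-/- samples 1 to 3 (red) on day 7, lines the group means, and the open triangle a sample listed at 0. The genotypes do not overlap in any of the 12 genes, which were chosen for a small p, and Gm20305 runs from 10.47 to 14.1 FPKM in Cthrc1-/- against at most 0.990 in WT.

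Without overlap between genotypes after TMM scaling were 714 genes higher (4.93%) and 594 lower (4.1%) in Cthrc1-/-. In the deposited FPKM those counts were 929 (6.42%) and 381 (2.63%). Among genes with a mean of at least 5 FPKM, the largest such differences upward, in mean log2(FPKM + 1), were in Serpinb3a, Gsdmc2, Slurp2, Sprr2a1, Sprr2a2, Sprr2a3, Rnase2b and Defb6, which include the squamous epithelial genes Serpinb3a, Slurp2 and Sprr2a. Serpinb3a, a protease inhibitor of the squamous epithelium, was at 1.77, 4.01 and 1.24 FPKM in WT and 27.5, 12.1 and 16.1 in Cthrc1-/- (log2 change 2.91 ± 1.17). Gsdmc2, a gasdermin, was at 1.36, 2.36 and 2.27 FPKM in WT and 9.05, 11.6 and 7.94 in Cthrc1-/- (log2 change 2.20 ± 0.72). Neither was called on day 7. On day 0 their log2 changes were 4.22 and 3.29, the second of them called (edgeR adjusted p 0.0426).

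The largest differences downward without overlap were in Cthrc1, Snora33, Osm, Serpinb2, Myh1, Scamp4, Hba-a1 and Hba-a2. Hba-a2, an alpha-globin of red blood cells, was at 199.96, 273 and 128 FPKM in WT and 71.9, 72.9 and 36.3 in Cthrc1-/- (log2 change -1.81 ± 0.62, edgeR adjusted p 0.896). The beta-globin Hbb-bs had 233, 314 and 136 FPKM in WT and 83.0, 89.5 and 41.1 in Cthrc1-/-, so the globins of both kinds were lower in each Cthrc1-/- sample. Summed over the near-identical Hba-a1 and Hba-a2, the counts were 334, 397 and 181 CPM in WT and 105, 108 and 51.8 in Cthrc1-/- (ratio 0.291, exact two-sided permutation p = 0.1). Both genes had been picked for not overlapping, so that p largely followed from the choice and is no further evidence. Scamp4, a vesicle membrane protein, was at 21.8, 8.02 and 21.8 FPKM in WT and 5.09, 2.73 and 2.49 in Cthrc1-/-, while Gm49322, which overlaps it and shares 1738 bases, was at 0.702, 5.75 and 0.973 FPKM in WT and 7.61, 8.31 and 9.43 in Cthrc1-/-. Their summed counts of 65.9, 47.6 and 57.5 CPM in WT and 47.95, 45.9 and 49.2 in Cthrc1-/- overlapped (ratio 0.836, exact two-sided permutation p = 0.3). Osm and Serpinb2 were high in WT replicate 1 alone. Osm, a cytokine of activated leukocytes, was at 95.4, 1.86 and 2.19 FPKM in WT and 0.357, 1.74 and 0.811 in Cthrc1-/-, and its log2 change went from -5.29 to -1.08 without that sample.

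Genes of inflammation came out lower in Cthrc1-/- as groups, and nearly all of that rested on WT replicate 1. Of 21 inflammatory cytokines and mediators tested, 11 were lower and 0 higher at an unadjusted p under 0.05, with a median log2 change of -2.10, against a median of -0.01 over all genes. WT replicate 1 was the highest of the 6 samples in 19 of the 21. Without it the median was 0.00 and 1 gene was lower at that p. Neutrophil markers went from -3.11 to 0.63 (17 genes, 9 and then 0 lower), chemokines from -1.10 to 0.34 (31 genes, 8 and then 1 lower), and macrophage markers from -0.91 to 0.07 (20 genes, 2 and then 0 lower). Leaving out WT replicate 2 or 3 in its place gave 14 and 15 lower cytokine genes, and leaving out Cthrc1-/- replicate 1, 2 or 3 gave 8, 6 and 2. The 5 summed neutrophil markers of WT replicate 3 were the lowest of all, at 39.1 FPKM against 382 to 1158 in Cthrc1-/-.

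The 1 cytokine gene that stood out without WT replicate 1 was Il1rn, the antagonist of the interleukin 1 receptor. It was at 8.54, 7.66 and 10.8 FPKM in WT replicates 1 to 3 and 2.498, 2.21 and 2.15 in Cthrc1-/- replicates 1 to 3. Each group was tight and the genotypes did not overlap. The log2 change was -2.05 ± 0.48 with all samples (unadjusted p 0.00150, edgeR adjusted p 0.638) and -2.03 without WT replicate 1, and on day 0 it was -1.53 (adjusted p 0.0773). Nfkbia, an inhibitor of NF-kappaB that follows inflammatory signalling, was at 215, 89.1 and 144.9 FPKM in WT and 110.0, 135 and 78.4 in Cthrc1-/-, with overlap. Among 24 genes of alternative macrophage activation, 4 were lower and 0 higher, the median was -0.94, and without WT replicate 1 it was -0.05. Arg1, its arginase, was at 439, 23.0 and 7.45 FPKM in WT and 35.4, 5.38 and 15.4 in Cthrc1-/-.

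**Figure D4:**
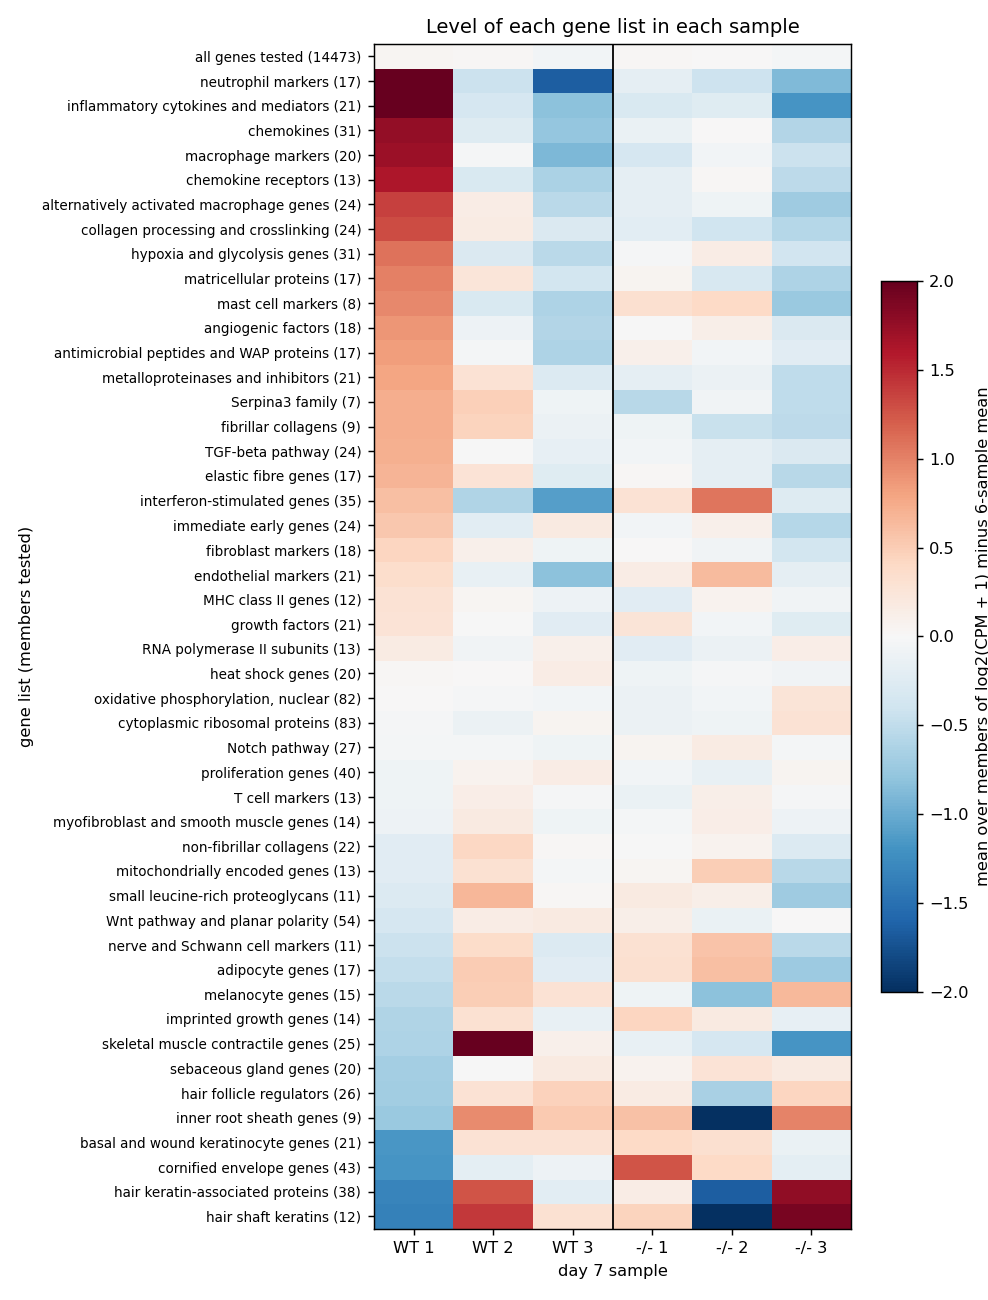
Colour gives, for each gene list (rows, with the number of members tested) and each day 7 sample (columns), the mean over members of log2(CPM + 1) after subtracting each gene's mean over the 6 samples; the scale ends at -2 and 2, and some cells lie beyond it. WT 1 is highest in neutrophil markers (3.56) and low in cornified envelope genes (-1.18), WT 2 is highest in skeletal muscle genes (2.17), and Cthrc1-/- 2 is lowest in hair shaft keratins (-2.71).

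Most collagen and matrix genes had negative log2 changes, few of them past an unadjusted p of 0.05. All 9 fibrillar collagen genes tested had a negative log2 change, with a median of -0.80, and -0.59 without WT replicate 1. Of 22 other collagens 14 had a negative log2 change, with a median of -0.13 and 0 at that p, and without WT replicate 1 the median was -0.32 with 1 higher and 1 lower. Small leucine-rich proteoglycans, which bind collagen fibrils, had a median of -0.47 over 11 genes with 0 at that p, and elastic fibre genes one of -0.48 over 17 with 3 lower, which became -0.43 with 1 lower and -0.25 with 0 lower without WT replicate 1. The 6 fibroblast markers, which include Col1a1 and Col1a2, summed to between 2743 and 3597 FPKM in WT and between 1770 and 2540 in Cthrc1-/-, and their part in this was not tested. Col1a1, the main chain of type I collagen, was at 2292, 1887 and 1525 FPKM in WT and 1260.1, 884 and 1065 in Cthrc1-/-, so the groups did not overlap, but the log2 change of -0.92 ± 0.57 had an unadjusted p of 0.136. Col3a1 was at 1852, 1426 and 943 FPKM in WT and 1175, 693 and 525 in Cthrc1-/- (log2 change -0.92 ± 0.62), with overlap. At an unadjusted p under 0.05 the list held 1 gene, Col24a1, a minor fibrillar collagen, which was at 1.94, 2.21 and 1.13 FPKM in WT and 0.787, 0.813 and 0.802 in Cthrc1-/- (log2 change -1.23 ± 0.37, edgeR adjusted p 0.896). On day 0 the list's median was -1.73, with Col1a1 at -2.23 (adjusted p 0.0544).

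Of 24 genes for collagen processing and crosslinking, 23 had a negative log2 change and 10 were lower at an unadjusted p under 0.05, with a median of -0.95. Without WT replicate 1, which was highest in 21 of the 24, the median was -0.41 and 0 genes had such a p. Leaving out WT replicate 2 or 3 gave 11 and 14 lower genes, and leaving out Cthrc1-/- replicate 1, 2 or 3 gave 4, 2 and 1. Plod2, a lysyl hydroxylase that prepares collagen crosslinks, was at 38.2, 5.73 and 4.15 FPKM in WT and 4.97, 3.71 and 2.88 in Cthrc1-/-. P3h1, a prolyl hydroxylase, was at 34.2, 18.2 and 13.7 FPKM in WT and 11.8, 9.80 and 12.5 in Cthrc1-/-, with no overlap (log2 change -1.07 ± 0.40, and -0.52 without WT replicate 1). Matricellular proteins, which tune cell contact with the matrix, had a median of -0.82, and -0.31 without WT replicate 1, with 3 of 17 lower and then 0. Ccn4, a Wnt-induced member, was at 12.3, 7.89 and 6.03 FPKM in WT and 3.94, 3.71 and 5.40 in Cthrc1-/- (log2 change -1.11 ± 0.36, and -0.70 without WT replicate 1). Postn, another member, was at 85.2, 292 and 190.3 FPKM in WT and 254, 208 and 145.4 in Cthrc1-/-, with a log2 change of 0.06 ± 0.51.

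Contractile genes of myofibroblasts and smooth muscle showed no such shift, with a median of -0.01 over 14 genes and 0 with an unadjusted p under 0.05. Acta2, the smooth muscle actin that marks myofibroblasts, was at 157, 172 and 137 FPKM in WT and 165, 169 and 239.7 in Cthrc1-/- (log2 change 0.22 ± 0.27). Fibroblast markers had a median of -0.35, and -0.17 without WT replicate 1. Of 24 TGF-beta pathway genes, 2 were lower, and 0 without WT replicate 1. Inhba, a chain of activin and 1 of the 2, was at 19.2, 2.04 and 2.04 FPKM in WT and 1.75, 2.25 and 1.97 in Cthrc1-/-.

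Among 54 genes of the Wnt pathway and planar polarity, 2 were higher and 1 lower at an unadjusted p under 0.05, a share near the 5.53% of all genes. With all samples, 27 log2 changes were positive and 27 negative. WT replicate 1 was the lowest sample in 31 of the 54. Without it 1 was higher and 4 were lower, against 2.2% and 1.49% of all genes, and the median was -0.19. Vangl2, a core membrane protein of planar cell polarity, was at 4.16, 3.01 and 3.34 FPKM in WT and 9.69, 5.64 and 9.68 in Cthrc1-/-. Every Cthrc1-/- sample was above every WT sample. The log2 change was 1.16 ± 0.28, with an unadjusted p of 0.00188 and an edgeR adjusted p of 0.737. Without WT replicate 1 it was 1.37. Fzd7, a Wnt receptor, was at 9.33, 12.4 and 13.6 FPKM in WT and 16.5, 19.1 and 13.9 in Cthrc1-/- (log2 change 0.42 ± 0.17). Of 27 Notch pathway genes 1 was higher, the feedback inhibitor Nrarp, at 13.5, 23.5 and 27.2 FPKM in WT and 31.9, 32.4 and 35.0 in Cthrc1-/- (log2 change 0.58 ± 0.20), where WT replicate 1 was the lowest sample. Without that sample 0 Notch genes had such a p.

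Interferon-stimulated genes, which answer type I and type II interferons and encode antiviral proteins, were further above 0 when WT replicate 1 was left out. With all 6 samples, 6 of 35 were higher and 0 lower at an unadjusted p under 0.05, with a median log2 change of 0.58, and 11 were higher under total-count scaling. Without that replicate, 23 of 35 were higher and 0 lower, against 2.2% and 1.49% of all genes, and the median was 1.31. Ifit3, an interferon-induced antiviral protein, was at 17.6, 11.7 and 8.57 FPKM in WT and 44.0, 74.9 and 22.3 in Cthrc1-/- (log2 change 1.80 ± 0.52, edgeR adjusted p 0.896, and 2.19 without WT replicate 1). Xaf1 was at 4.63, 3.45 and 2.83 FPKM in WT and 11.8, 25.1 and 7.75 in Cthrc1-/- (log2 change 1.94 ± 0.48). Both separated the genotypes without overlap. Isg15, a ubiquitin-like protein, was at 84.3, 18.6 and 19.9 FPKM in WT and 50.3, 95.5 and 49.4 in Cthrc1-/-, and Irf7, the factor that amplifies the response, at 19.7, 4.49 and 3.33 FPKM in WT and 10.7, 31.3 and 12.3 in Cthrc1-/-, so that for these WT replicate 1 was among the Cthrc1-/- values.

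Much of that size depended on single samples of either genotype. Cthrc1-/- replicate 2 was the highest sample in 23 of the 35 genes and WT replicate 1 in the other 12. Without Cthrc1-/- replicate 2 the list median was 0.19, with 3 higher. WT replicate 3 was the lowest sample in 32 of the 35, and without it the list median was 0.41, with 4 higher and 1 lower. All 3 Cthrc1-/- samples were above both WT replicates 2 and 3 in 19 of 35 genes (54.3%), where 9.72% of all genes showed that order. Other lists departed from all genes in the reverse order, with all 3 below both, which 9.33% of all genes showed. It held in 4 of 9 fibrillar collagens (44.4%), 6 of 17 matricellular genes (35.3%) and 13 of 25 skeletal muscle genes (52%). No interferon-stimulated gene was called, and on day 0 the list's median was -0.88, the opposite sign. The interferon-stimulated response element, searched as GAAA, any 2 bases and GAAA, on both strands in the 250 bases before the start, was in the RefSeq promoters (GRCm38.p6) of 13 of the 27 list members that matched by symbol, and of 3.25% of the 10016 tested genes that matched. The promoter of Ifit3, at chr19:34583279-34583528 (plus strand), holds it at 2 places, both on the minus strand and given in capitals, and is shown because this gene had the second smallest p of the list.
Ifit3 promoter: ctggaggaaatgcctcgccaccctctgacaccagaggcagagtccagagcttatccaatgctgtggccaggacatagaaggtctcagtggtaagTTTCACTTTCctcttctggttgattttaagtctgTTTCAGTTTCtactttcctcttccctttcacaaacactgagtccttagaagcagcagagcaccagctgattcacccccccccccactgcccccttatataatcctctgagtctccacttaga

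Endothelial markers likewise had their highest values in Cthrc1-/- replicate 2. Of 21 tested, 0 had an unadjusted p under 0.05, and the median was 0.36, with 3 higher under total-count scaling, while without WT replicate 1 it was 0.71 with 4 higher. All 3 Cthrc1-/- samples were above WT replicates 2 and 3 in 13 of 21 (61.9%, against 9.72% of all genes). Without Cthrc1-/- replicate 2, which was highest in 16 of the 21, the median was 0.09. Without WT replicate 3, which was lowest in 18 of the 21, it was 0.11 with 0 higher. The 3 defining markers summed to between 37.1 and 93.2 FPKM in WT and between 59.7 and 107 in Cthrc1-/-. Vwf, the von Willebrand factor, was at 5.21, 4.80 and 3.50 FPKM in WT and 8.64, 11.6 and 5.89 in Cthrc1-/- (log2 change 0.86 ± 0.40), and Pecam1 at 40.0, 27.1 and 17.6 FPKM in WT and 36.2, 53.1 and 28.8 in Cthrc1-/-.

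Hypoxia and glycolysis genes had a median of -0.50 over 31 genes, with 1 higher and 1 lower, and WT replicate 1 was highest in 23. Without it the median was 0.33, with 7 higher and 1 lower. Without WT replicate 3 it was -0.71, with 1 higher and 9 lower, so the direction turned on which WT sample was left out. Aldoc, a glycolytic aldolase, did not depend on that sample. It was at 2.38, 2.78 and 2.88 FPKM in WT and 4.83, 5.21 and 4.58 in Cthrc1-/- (log2 change 0.79 ± 0.20, edgeR adjusted p 0.854, and 0.77 without WT replicate 1).

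Genes of the cornified envelope, the protein shell of the outermost keratinocytes, were higher in Cthrc1-/- in 42 of 43 members, with 8 higher and 0 lower at an unadjusted p under 0.05 and a median of 1.04. Without WT replicate 1, which was lowest in 21 members, the median was 0.67 and 3 were higher and 1 lower. Lce3f, a late envelope protein induced in barrier repair, was at 0.424, 0 and 0.412 FPKM in WT and 9.82, 3.31 and 3.04 in Cthrc1-/-. Sprr4, a small proline-rich envelope protein, was at 6.56, 16.3 and 16.1 FPKM in WT and 37.5, 48.6 and 19.1 in Cthrc1-/- (log2 change 1.40 ± 0.46, edgeR adjusted p 0.896, and 1.10 without WT replicate 1). The near-identical Sprr2a1, Sprr2a2 and Sprr2a3 were summed, and came to 746, 1637 and 476 CPM in WT and 3418, 2605 and 2620.0 in Cthrc1-/- (ratio 3.02, no overlap, exact two-sided permutation p = 0.1). These genes were named above for not overlapping, so the sum's lack of overlap and its p largely followed from that choice. Cthrc1-/- replicate 1 was the highest sample in 34 of the 43 genes, and without it the median was 0.53 with 2 higher. On day 0 the list's median was 2.25, against -0.05 over all genes. Of its 43 members 11 were called higher and 0 lower on day 0, against 3.31% and 2.09% of all genes. Basal keratinocyte genes were lowest in WT replicate 1 in 18 of 21, and their median of 0.22 became -0.11 without it.

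Hair genes did not separate the genotypes on day 7. The median was -0.10 over 9 inner root sheath genes, 0.20 over 12 hair shaft keratins and 0.56 over 38 keratin-associated proteins, and 0 members of the 3 lists had an unadjusted p under 0.05. Without WT replicate 1 those medians were -0.41, -0.26 and 0.02, and without Cthrc1-/- replicate 3 they were -0.68, -1 and -1.20. Krt71, a keratin of the inner root sheath, was at 595, 1328 and 1234 FPKM in WT and 1293, 169 and 1794 in Cthrc1-/-. Cthrc1-/- replicate 2 was the lowest sample in all 9 inner root sheath genes and all 12 hair shaft keratins, and Cthrc1-/- replicate 3 the highest in all 12 of the latter. On day 0 the median log2 changes of these 3 lists were 10.6, 9.78 and 10.6. Proliferation genes, 40 in number, had a median of -0.08 with 1 lower, Mcm3, a subunit of the replicative helicase.

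Skeletal muscle contractile genes were lower in Cthrc1-/- in 24 of 25 members, with 10 lower and 0 higher at an unadjusted p under 0.05 and a median of -1.49. WT replicate 2 was the highest sample in 23 of the 25. Without it the median was -0.14 and 0 genes had such a p, whereas without WT replicate 1 the median was -1.97 and 18 were lower. Leaving out Cthrc1-/- replicate 1, 2 or 3 gave 6, 6 and 2 lower genes. The 4 defining markers summed to 73.8, 656 and 123 FPKM in WT replicates 1 to 3 and to 125, 106 and 51.5 in Cthrc1-/- replicates 1 to 3. Myh1, a fast myosin heavy chain, was at 1.96, 48.9 and 7.80 FPKM in WT and 1.74, 1.51 and 0.570 in Cthrc1-/- (log2 change -3.97 ± 1.19, edgeR adjusted p 0.896). Acta1, skeletal actin, was at 60.4, 457 and 91.9 FPKM in WT and 101.1, 84.5 and 45.1 in Cthrc1-/-, with overlap. The muscle difference therefore rested on 1 WT sample, and the part of the muscle content of each sample in it was not tested.

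Among 20 heat shock genes, 4 were lower and 0 higher at an unadjusted p under 0.05, against 3.2% and 2.33% of all genes. The numbers were the same without WT replicate 1. The median was -0.09, and 8 of the 20 had a positive log2 change. Between 3 and 5 were lower whichever sample was left out, and 2 were higher without WT replicate 3. Hsp90b1, the chaperone of the endoplasmic reticulum, was at 203.4, 123 and 113 FPKM in WT and 97.9, 88.8 and 81.5 in Cthrc1-/- (log2 change -0.82 ± 0.24, and -0.42 without WT replicate 1). Hsph1 was at 6.06, 7.90 and 8.39 FPKM in WT and 6.00, 5.16 and 5.99 in Cthrc1-/- (log2 change -0.45 ± 0.13). Genes of 83 cytoplasmic ribosomal proteins and of 82 nuclear subunits of oxidative phosphorylation had medians of 0.10 and 0.08, which total-count scaling moved to 0.17 and 0.16, by about as much as the median of all genes moved. Without Cthrc1-/- replicate 3 they were -0.04 and -0.07, so no direction is given for either.

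Growth factor and fate genes gave few differences. Fgf1, a fibroblast growth factor, was at 1.05, 1.67 and 1.33 FPKM in WT and 3.22, 3.51 and 1.84 in Cthrc1-/- (log2 change 1.02 ± 0.34, and 0.91 without WT replicate 1). It was the 1 higher of 21 growth factors at an unadjusted p under 0.05, and 1 was lower. Cdkn1c, an imprinted inhibitor of the cell cycle, was the 1 higher of 14 imprinted genes, at 4.05, 18.1 and 11.8 FPKM in WT and 26.5, 26.9 and 20.8 in Cthrc1-/- (log2 change 1.09 ± 0.37, edgeR adjusted p 0.896). Every Cthrc1-/- sample exceeded every WT sample, and without WT replicate 1, the lowest, the log2 change was 0.70. Sox9, a factor of the hair follicle, was 1 of 2 higher among 26 hair follicle regulators, at 5.87, 10.9 and 15.4 FPKM in WT and 14.6, 18.9 and 20.6 in Cthrc1-/-, with overlap. That count was 0 without WT replicate 1, Cthrc1-/- replicate 2 or Cthrc1-/- replicate 3, and 1 under total-count scaling. Apoc1, an apolipoprotein, and Krt79, a keratin of the sebaceous duct, were the 2 higher of 20 sebaceous gland genes, with 1 higher without WT replicate 1 and 0 without Cthrc1-/- replicate 2. Apoc1 was at 35.5, 82.7 and 96.7 FPKM in WT and 107, 184 and 141 in Cthrc1-/- (log2 change 0.97 ± 0.32, and 0.67 without WT replicate 1), without overlap.

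Some of the remaining lists held genes set apart by WT replicate 1. Timp1, an inhibitor of metalloproteinases, was at 2721, 75.7 and 39.7 FPKM in WT and 44.5, 33.2 and 51.2 in Cthrc1-/-, and Mmp8, the neutrophil collagenase, at 11.6, 0.916 and 0.719 FPKM in WT and 0.525, 0.919 and 0.274 in Cthrc1-/-. These were the 2 lower of 21 metalloproteinases and inhibitors, and neither had an unadjusted p under 0.05 without that replicate. Hdc, which makes histamine, was the 1 lower of 8 mast cell markers, at 67.5, 1.54 and 1.03 FPKM in WT and 2.46, 3.58 and 1.08 in Cthrc1-/-, and its log2 change went from -3.49 to 0.86 without WT replicate 1. The mast cell proteases Cma1 and Mcpt4 had log2 changes of 0.21 and 0.09. Egr2, an immediate early gene, differed from these: it was at 9.64, 3.66 and 13.3 FPKM in WT and 4.95, 2.51 and 1.55 in Cthrc1-/-, and its log2 change was -1.63 ± 0.50 with all samples and -1.49 without WT replicate 1. Adipocyte, melanocyte, T cell and Schwann cell lists, with 17, 15, 13 and 11 genes tested, held 0 genes with an unadjusted p under 0.05.

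**Figure D5:**
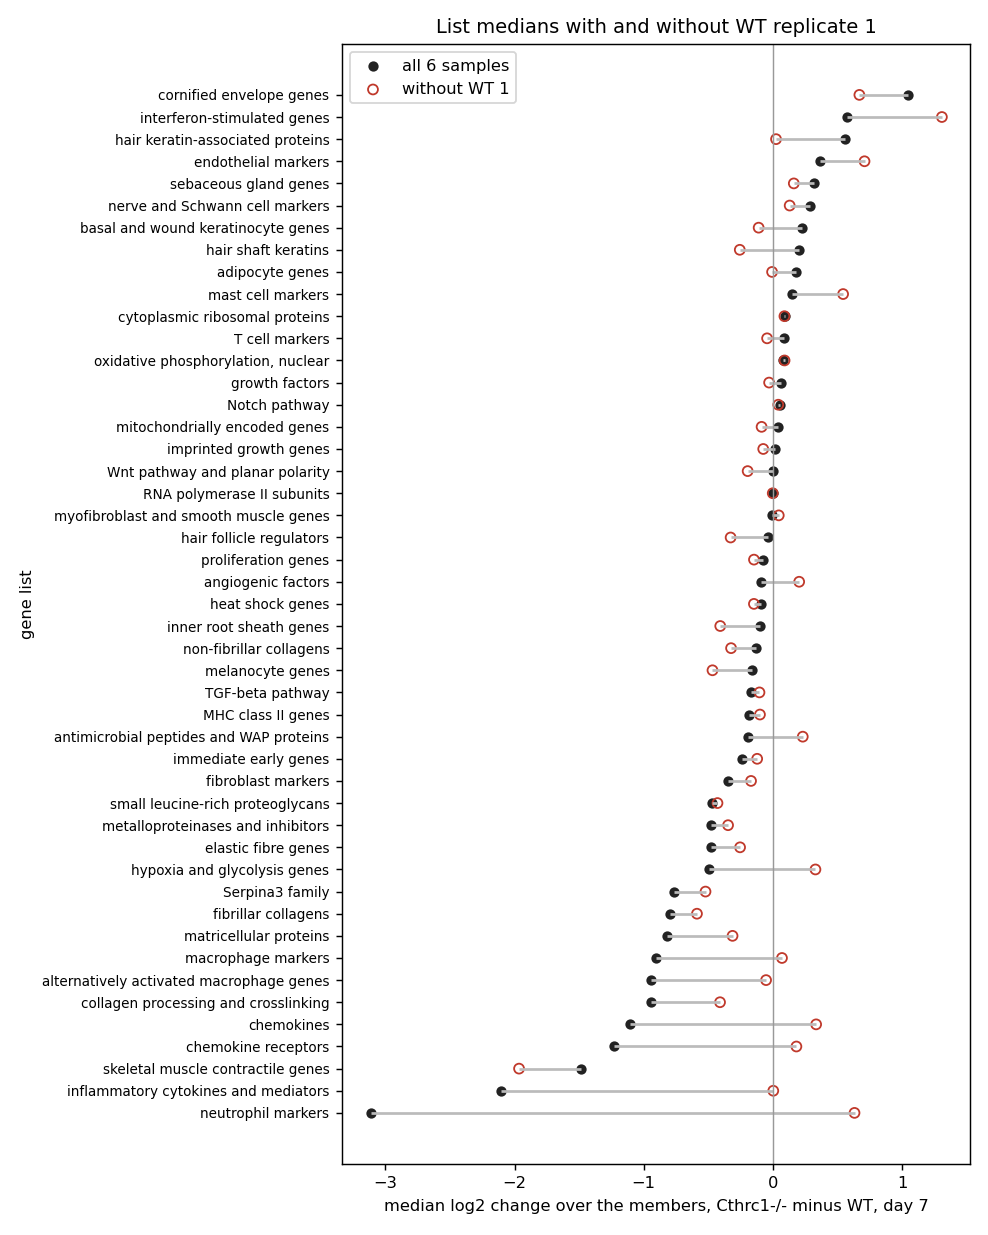
Each row is a gene list and the horizontal axis its median log2 change, Cthrc1-/- minus WT, on day 7, with all 6 samples (filled) and without WT replicate 1 (open). Neutrophil markers move from -3.11 to 0.63 and interferon-stimulated genes from 0.58 to 1.31, while fibrillar collagens stay negative at -0.80 and -0.59.

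The day 0 samples enter the day 7 test through the estimate of the spread and through the TMM scaling, which was done on all 12 samples. They gave the same sign of genotype difference for 563 of the 800 genes with an unadjusted p under 0.05 on day 7, or 70.4%, where it was 54.4% over all genes tested. Of the 800, 85 (10.6%) were called on day 0, against 782 of all 14473 genes (5.4%), and 74 of the 85 had the same direction. Of the 16 genes of smallest p, 8 were called on day 0 and 7 of them in the same direction, the exception being Apbb2. Those 7 were Cthrc1, Polr2k, Rpl30, Ipmk, Snora33, Dact2 and Defb6. All 12 samples share 1 estimate of the spread, so the 2 days are not wholly independent.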

How the data were processed

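Poly(A) RNA from 12 dermis samples was sequenced as stranded paired-end libraries with molecular identifiers, per the labels' protocols. Per the submitters' processing notes, the tools included cutadapt 1.9, HISAT2 2.0.4, UMI-tools, StringTie 1.3.4d, DESeq2 and edgeR, with the GRCm38 build; the annotation release and the settings are not given in the sources used here. The authors deposited estimated counts per gene, which are whole numbers and were tested as such, and FPKM values, in which a count of 0 carries a placeholder of 0.0001 FPKM and is printed as 0. In all libraries the deposited counts fall on multiples of 4 more often than on neighbouring numbers, so they may not be counts of single molecules, and the cause was not tested. The design had foreseen counts, and the same tests were used.

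Gene names, types and coordinates came from GENCODE M21 (GRCm38), which named 55141 of the 55401 identifiers. Genes with a mean of at least 1 FPKM over the 6 day 7 samples were tested with edgeR 4.0.16 (R 4.3.3) by the quasi-likelihood test, with 4 group means over all 12 samples, TMM scaling and Benjamini-Hochberg adjustment. DESeq2 1.42.0, limma 3.58.1 on log2(FPKM + 1) and voom with sample quality weights were alternatives. Total counts per sample set the precision: 3 counts is the floor under which a 0 is read, and intervals cover counting error only. Copies of a gene were found by comparing transcripts of the annotation, and their summed counts were compared by exact permutation. On simulated data with 200 changed genes among the 14473, edgeR recovered 56% of those changed 2-fold and 100% of those changed 4-fold, with 3.11% false calls. The simulation gave every gene the same spread, held no outlying sample and changed only genes with many counts. Its shares therefore do not carry over to the samples here. Cd14, with a log2 change of -3.73 on day 7, was not called (edgeR adjusted p 0.896).

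Named genes were Cthrc1, all called genes, the 8 higher and 8 lower genes of smallest p with a symbol that is no placeholder, the 8 largest differences each way without overlap among genes with a mean of at least 5 FPKM, the 6 genes each way in which WT replicate 1 lay farthest outside the others, and in each gene list the 2 highest members and the 2 of smallest p. Gene copies, neighbours of Cthrc1, Hbb-bs, Isg15, Irf7, Pds5a and Eif3s6-ps2 were added after their values were seen. The genes and lists were chosen with earlier results of these data known. Some genes and sequences that fall under this rule are not reported here.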

Additional observations from a re-analysis of the deposited data

Results flagged for a closer look

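Apbb2 gave opposite genotype differences on the 2 days, as a test of the difference itself showed. Its interaction of genotype and day was 4.48 on the log2 scale (edgeR adjusted p 0.0145 over 14473 genes). All 3 Cthrc1-/- samples were below all 3 WT samples on day 0, and all 3 were above them on day 7. The gene's level was low, between 0.250 and 3.00 FPKM over the 12 samples.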

How the results depend on the processing

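The 3 calls became 58 with DESeq2, 8 with limma on log2(FPKM + 1), 5 with limma on log2(FPKM + 0.1) and 11 with voom and sample quality weights, while the other alternatives with all 12 or the 6 day 7 samples gave 2 to 4. Leaving out a replicate gave 0 to 4 calls, with 0 without Cthrc1-/- replicate 1, where 587 genes still had an unadjusted p under 0.05. The 800 genes at that p became 1344 of 34303 without a filter, 468 of 8037 with a mean of at least 5 FPKM, and 1564 with voom, and ranged from 417 without Cthrc1-/- replicate 2 to 1553 without WT replicate 3 (533 without WT replicate 1). The split into higher and lower was 569 and 184 with limma on log2(FPKM + 1) and 917 and 647 with voom. Over 19 fits Gm20305 was called in 17, Cthrc1 in 16, Gm47305 in 12 and Polr2k in 5.

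The log2 change of Cthrc1 ranged from -12.37 to -10.49 when a replicate was left out, and was -11.07 with only the day 7 samples, where it was not called. Of 213 named genes, 71 had the other sign in at least 1 fit without a replicate. Among them were 14 that had an unadjusted p under 0.05 or were not named from a gene list alone, and each of these turned without WT replicate 1. Their log2 changes ranged from -4.12 to 0.26 for Arg1, -4.28 to 0.068 for Ccr1, -3.39 to 0.39 for Ccrl2, -4.29 to 0.028 for Cd14, -4.66 to 0.31 for Cxcl2, -6.33 to 0.92 for Cxcl3, -6.13 to 0.14 for Cxcl5, -4.06 to 0.86 for Hdc, -0.14 to 1.12 for Krt1, -0.49 to 1.15 for Krt10, -5.82 to 1.15 for Retnlg, -3.14 to 0.42 for Slc16a3, -0.082 to 0.90 for Zfp422 and -0.12 to 0.92 for Zfp445. Krt10 also turned without 3 other samples. With voom the changes were 0.19 for Ccrl2, 0.27 for Cxcl3, 0.52 for Hdc and 0.71 for Retnlg. Of the list medians under each setting, 345 moved by less than the spread between samples and 12 by more. That spread was the larger of those within the 2 genotypes, and WT replicate 1 widened it. Hypoxia and glycolysis genes, at -0.50 and at 0.33 without that replicate, thus counted as unmoved. The tally therefore does not show that the lists are independent of WT replicate 1.

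The replicate numbers showed no clear pairing of the samples, but 3 samples per genotype are too few to decide whether they were paired. Around their group means, samples that share a number had correlations of -0.054, -0.185 and 0.156. Except for the second, these lay within the range of -0.146 to 0.199 of other pairs. With the replicate number as a block there were again 3 calls and 679 genes at an unadjusted p under 0.05, and for Cthrc1 the value was -11.08, with an edgeR adjusted p of 0.0498.

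A gene with 3 counts in a whole group, such as Gm47305 in WT, has a fold with a wide counting interval, and with 3 samples per genotype a 2-fold change was often missed in simulated data.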
